A study of Rattus norvegicus with 4 samples.

Results

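The tumour necrosis factor (TNF) superfamily comprises cytokine ligands, their receptors and the adaptors that carry the signal inside the cell. Its transcripts were examined in RSC96, an established cell line of rat Schwann cells, which are the glia of peripheral nerves. Genes were selected by symbol in the gene table, as those named Tnfrsf, Tnfsf, Tnfaip or Traf followed by a number, together with Tnf, Lta, Ltb, Ltbr, Fas, Faslg, Cd40, Tnip1, Tnip2, Ripk1, Ripk2, Ripk3, Tradd, Fadd, Birc2 and Cflar. This gave 55 genes of 17244 distinct symbols in 17778 rows: 13 ligands, 19 receptors, 6 TRAF adaptors, 3 TRAF3-interacting proteins, 7 death-domain adaptors, RIP kinases and apoptosis inhibitors, and 7 TNFAIP or TNIP proteins. The symbol rule also takes genes that are named for TNF or for TRAF3 but are not part of the receptor complexes, such as Tnfaip1 and Traf3ip1. In the IL-22 group, RSC96 cells of generation 4 were kept overnight without serum and then given 100 ng/ml recombinant rat IL-22 for 48 h. In the control group the same cells, also deprived of serum overnight, received the solvent, 0.1% bovine serum albumin, for a time the labels do not give. Each group had 2 libraries of poly(A) RNA. Both groups come from 1 cell line, and separate cultures are not stated, so the p-values reflect library-to-library spread only, and this may be technical.

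Ligands of the family are trimeric and mostly membrane-bound proteins that cluster their receptors. Receptors without a death domain recruit TRAF proteins, which build ubiquitin chains with the ligases of the Birc family and switch on NF-kappaB and MAP kinases. Receptors with a death domain, such as Tnfrsf1a and Fas, bind the adaptors Tradd and Fadd and can lead through Ripk1 and caspase-8 to survival signals, apoptosis or, with Ripk3, necroptosis. In injured peripheral nerve TNF is known as an early inflammatory signal made by Schwann cells and macrophages. IL-22 is a cytokine of the IL-10 family whose receptor signals mainly through STAT3.

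Levels are given in FPKM, read fragments normalised to transcript length and library size, a level per length that allows genes to be set side by side. A mean is followed by ± the SD of the 2 libraries of its group, and a log2 difference by ± its limma standard error (SE). Sequencing depth relative to control library 1, taken from the spacing of low values, was 1.08 in both IL-22 libraries and 1.28 in control library 2. Absolute depth is unknown. Between 40 and 42 of the 55 genes were above 0 FPKM in the IL-22 libraries and between 41 and 44 in the control libraries. Il22ra1, the gene of the IL-22-binding receptor chain, was at 0 FPKM in every library, whereas Il10rb, the gene of its partner chain, averaged 8.83 ± 0.497 FPKM with IL-22 and 7.96 ± 0.609 FPKM in control. Stat3 was 1.60-fold higher with IL-22 (0.67 ± 0.07, limma adjusted p = 3.95e-05), and Socs3, a STAT3 target gene that restrains cytokine receptors, 3.15-fold higher (1.65 ± 0.06, limma adjusted p = 1.99e-07). The Schwann lineage markers Sox10, S100b and Mbp were each under 0.1 FPKM in both group means, while Sox2 and Pmp22 were above 10 FPKM, so the labelled cell type rests on part of its markers. Of 15 Schwann markers 7 averaged under 1 FPKM and were not tested. All 8 that were tested were called, 6 higher and 2 lower with IL-22, where 58.4% of all tested rows were called. Among the 8 were Pmp22 (2.17-fold higher), Egr2 (11.1-fold higher) and Sox2 (to 0.487 of control). Egr2 averaged 0.460 FPKM and Erbb3 0.752 FPKM in control, and Gfap averaged 0.653 FPKM with IL-22. These genes passed the minimum of 1 FPKM through 1 group alone, so their selection is not separate from their difference. Of 7 fibroblast markers Dcn and Lum were at 0 throughout, while Thy1 averaged 242 FPKM with IL-22 and 212 FPKM in control and Col1a2 146 FPKM with IL-22 and 172 FPKM in control. The 5 fibroblast markers tested were all called, 3 higher and 2 lower, against the same 58.4% of all tested rows. The summed level of the 7 was 406 and 411 FPKM in the IL-22 libraries and 409 and 400 FPKM in the control libraries. The part of these marker changes in the family's results was not tested. Of 19 macrophage and leukocyte markers with a row, 17 were under 1 FPKM in every library, 8 of them at 0 throughout, among them Aif1, Tyrobp, C1qa and C1qb. The others were Cd14 and Cd68, neither of them called. Cd14 measured 4.61 and 2.47 FPKM in the IL-22 libraries and 2.22 and 2.16 FPKM in the control libraries. Cd68 measured 0.998 and 0.775 FPKM in the IL-22 libraries and 1.56 and 1.21 FPKM in the control libraries. The summed level of the 19 was 7.41 and 4.22 FPKM in the IL-22 libraries and 4.47 and 4.19 FPKM in the control libraries. All 5 endothelial markers averaged under 1 FPKM and were not tested. Tek measured 0.361 and 0.232 FPKM in the IL-22 libraries and 1.45 and 1.24 FPKM in the control libraries. Pecam1 was also lower with IL-22, while Cdh5, Kdr and Tie1 were higher, at 0.260 FPKM or less in every library.

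Among the family members that averaged 1 FPKM or more, the largest rises with IL-22 were those of Tnfaip6 (3.52-fold), Tnfaip2 (2.81-fold), Traf1 (1.91-fold) and the NF-kappaB inhibitor gene Tnip1 (1.58-fold), and the largest falls those of Traf3ip1, the death adaptor gene Fadd and the receptor gene Tnfrsf12a. Of the 13 ligands 11 averaged under 1 FPKM, and Tnf was at 0 FPKM throughout. Of the 55 genes 32 averaged 1 FPKM or more across the 4 libraries and were tested. In each of these 32 both group means were at least 1 FPKM, so none passed the minimum through 1 group alone. By limma, which tests each gene with a spread shared across genes, 13 of the 32 were higher and 4 lower with IL-22 (Benjamini-Hochberg adjusted p under 0.05 over 9485 gene rows). Over all tested rows 27.6% were higher and 30.8% lower, so 58.4% passed in either direction, against 53.1% of the family (17 of 32). The family's share of higher calls was 40.6% and of lower calls 12.5%. On the log2(FPKM + 1) scale the median of IL-22 minus control was 0.16 over the family and -0.02 over all tested rows. The libraries of the groups did not overlap in 25 of the 32, or 78.1%, against 80.1% of all tested rows. Of the 17 called genes 8 differed by at least 0.5 log2 (25% of the 32, against 30.7% of all tested rows) and 9 by less. Tnfaip6 and Tnfaip2 were higher by at least 1 log2 with no overlap, a size that 4.68% of all tested rows reached upward, and no family member fell by that much, which 2.84% of rows did. In cells of 1 line, fewer cells that express a gene and less RNA per cell cannot be told apart.

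**Figure D1:**
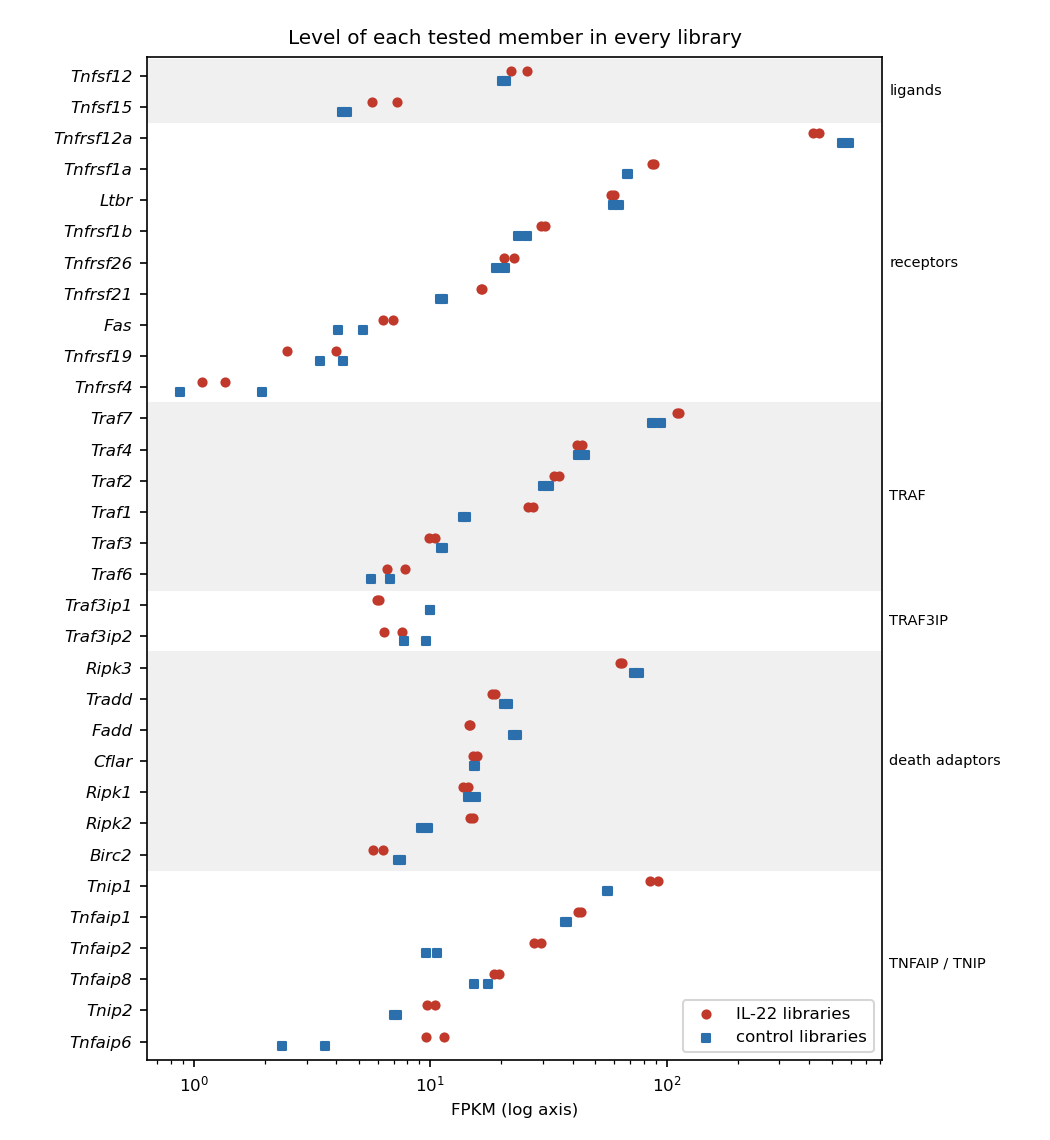
FPKM on a log axis for the 32 tested genes, ordered by role, with a circle for each of the 2 IL-22 libraries and a square for each of the 2 control libraries. Tnfrsf12a lies above 400 FPKM in every library, and Tnfaip2, Tnfaip6 and Traf1 show the widest gaps between circles and squares.

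**Figure D2:**
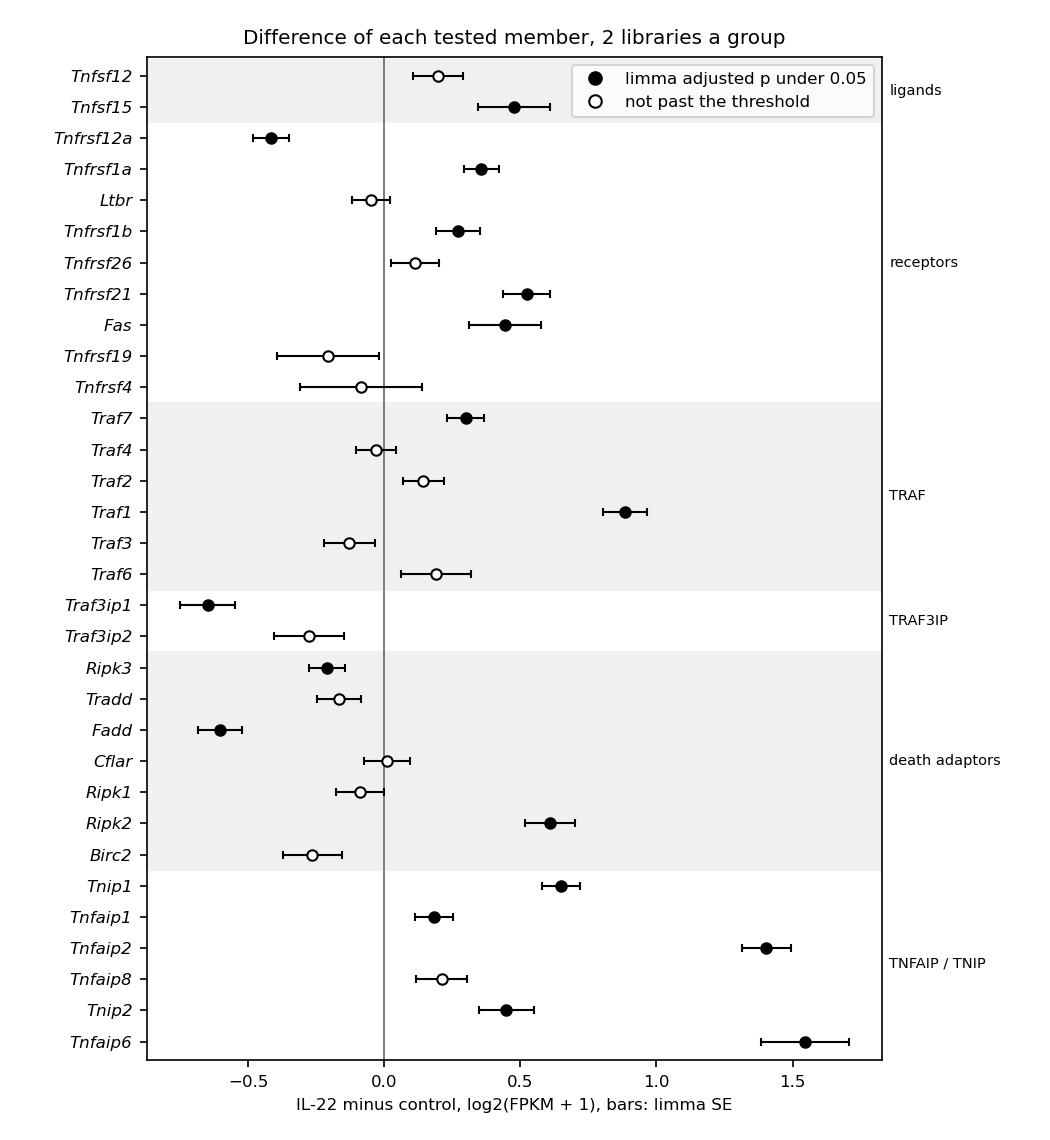
Log2(FPKM + 1) difference, IL-22 minus control, for the same 32 genes, with the limma standard error as bars. Filled points passed the limma threshold, and the differences run from -0.65 for Traf3ip1 to 1.54 for Tnfaip6.

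The ligands were the least expressed class. Tnf, the gene of TNF itself, was at 0 FPKM in both IL-22 libraries and in both control libraries. Lta, which encodes lymphotoxin-alpha, was at 0 in both IL-22 libraries and at 0.105 and 0.247 FPKM in control libraries 1 and 2. Ltb, which encodes the membrane anchor of lymphotoxin, was at 0 and 0.0967 FPKM in the IL-22 libraries and at 0 in both control libraries. In the GRCr8 annotation these 3 genes lie next to each other on chromosome 20, and none of them reached 1 FPKM. Faslg, the ligand of the death receptor Fas, was at 0.313 and 0.235 FPKM in the IL-22 libraries and at 0.170 and 0.198 FPKM in the control libraries, a range that does not overlap but lies under the minimum for testing. Tnfsf4, the OX40 ligand, Tnfsf11, the RANK ligand, and Tnfsf14, also called LIGHT, were at 0 in every library. Tnfsf9, Tnfsf10 (TRAIL), Tnfsf13 (APRIL) and Tnfsf13b (BAFF) were also under the minimum, and the highest single value among all 11 untested ligands was 0.895 FPKM, for Tnfsf10 in control library 1.

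The 2 tested ligands were Tnfsf12 and Tnfsf15. Tnfsf12, which encodes TWEAK, measured 21.9 and 25.5 FPKM in the IL-22 libraries and 20.8 and 20.2 FPKM in the control libraries. In the GRCr8 annotation Tnfsf12 overlaps Eif4a1l, and reads from the shared stretch cannot be told apart without strand. The groups did not overlap, yet the difference of 0.20 ± 0.09 (SE) did not pass (limma adjusted p = 0.0943), and it passed with quantile normalization (0.25, limma adjusted p = 0.0451) and when IL-22 library 1 was left out (0.30, limma adjusted p = 0.0459). Tnfsf15, which encodes TL1A, measured 7.23 and 5.66 FPKM in the IL-22 libraries and 4.22 and 4.43 FPKM in the control libraries. Both IL-22 libraries were above both controls, a 1.49-fold rise (0.48 ± 0.13, limma adjusted p = 0.013). That call was lost without the filter on low rows (limma adjusted p = 0.0569), without control library 1 (0.0962), without control library 2 (0.0719) and without IL-22 library 1 (0.119).

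Among the receptors 4 rose and 1 fell of 9 tested, or 55.6% called, against 58.4% of all tested rows. Tnfrsf12a encodes Fn14, the receptor of TWEAK, and was the most abundant transcript of the whole family, ranking 174 of 17778 gene rows by mean FPKM. It measured 439.5 and 416 FPKM in the IL-22 libraries and 553 and 589 FPKM in the control libraries. Both IL-22 libraries were below both controls, and the mean fell to 0.75 of control (-0.41 ± 0.07, limma adjusted p = 0.000593). It alone made up 34.0% and 32.7% of the summed FPKM of the 55 genes in the IL-22 libraries and 43.1% and 44.4% in the control libraries.

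The TNF receptor genes were both higher. Tnfrsf1a, which encodes the death-domain receptor TNFR1, measured 87.1 and 88.7 FPKM in the IL-22 libraries and 68.1 and 68.7 FPKM in the control libraries. The replicates lay close together and the groups apart, a 1.29-fold rise (0.36 ± 0.06, limma adjusted p = 0.00118). Tnfrsf1b, which encodes TNFR2, a receptor without a death domain, measured 30.5 and 29.3 FPKM in the IL-22 libraries and 25.8 and 23.4 FPKM in the control libraries. This 1.21-fold rise (0.27 ± 0.08, limma adjusted p = 0.0175) lost its call without control library 2 (limma adjusted p = 0.0798) and without IL-22 library 1 (0.105). In the GRCr8 annotation Tnfrsf1b overlaps the protein-coding gene LOC103692519, and without strand reads from the shared stretch cannot be told apart. Ltbr, the lymphotoxin-beta receptor, which drives the alternative NF-kappaB pathway, measured 58.1 and 59.8 FPKM in the IL-22 libraries and 59.1 and 62.9 FPKM in the control libraries. Its groups overlapped and it did not pass (-0.05 ± 0.07, limma adjusted p = 0.571).

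The 2 further death-domain receptors that were tested also rose. Tnfrsf21, which encodes death receptor 6, measured 16.5 and 16.4 FPKM in the IL-22 libraries and 11.3 and 10.99 FPKM in the control libraries, a 1.48-fold rise with no overlap (0.52 ± 0.09, limma adjusted p = 0.000816). Fas, the receptor that starts apoptosis through Fadd, measured 6.33 and 6.95 FPKM in the IL-22 libraries and 5.21 and 4.06 FPKM in the control libraries. The groups were apart and the rise was 1.43-fold (0.45 ± 0.13, limma adjusted p = 0.0175), but the call was lost without the filter (limma adjusted p = 0.0688), without control library 2 (0.103) and without IL-22 library 2 (0.0758).

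The last 3 tested receptors had overlapping groups and did not pass. Tnfrsf26, a receptor described in mouse, averaged 21.6 ± 1.49 FPKM with IL-22 and 19.8 ± 1.11 FPKM in control. Tnfrsf19, also called TROY, averaged 3.23 ± 1.08 FPKM with IL-22 and 3.83 ± 0.604 FPKM in control. Tnfrsf4, the OX40 receptor, averaged 1.22 ± 0.190 FPKM with IL-22 and 1.41 ± 0.748 FPKM in control, and at this level its control libraries alone ranged from 0.876 to 1.93 FPKM. Tnfrsf19 was at 4.00 FPKM in IL-22 library 1, and without that library its difference was -0.47 (limma adjusted p = 0.0487). In both groups the order of the 9 tested receptors by mean level was the same, Tnfrsf12a, Tnfrsf1a, Ltbr, Tnfrsf1b, Tnfrsf26, Tnfrsf21, Fas, Tnfrsf19 and Tnfrsf4.

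Of the 10 receptors under the minimum, Tnfrsf9 stood apart by group. It encodes 4-1BB (CD137), a receptor best known from activated lymphocytes that signals through Traf1 and Traf2. It measured 1.03 and 1.22 FPKM in the IL-22 libraries, against 0 and 0.0690 FPKM in the control libraries. With the filter on low rows removed, its difference was 1.04 ± 0.08 (limma adjusted p = 0.00261). Its ligand gene Tnfsf9 stayed at or under 0.169 FPKM in every library. Tnfrsf25, which encodes death receptor 3, the receptor of TL1A, measured 0.938 and 0.859 FPKM in the IL-22 libraries and 0.508 and 0.462 FPKM in the control libraries (0.35 ± 0.06, limma adjusted p = 0.0171 without the filter). Of 14 family members under the minimum but above 0 somewhere, only Tnfrsf9 and Tnfrsf25 passed in that fit. Lta came next (limma adjusted p = 0.0710). Over all 12482 rows of that fit 2528 were higher and 2553 lower. Both genes were singled out on these same values, so the fit is not separate support. Cd40, Tnfrsf10b, Tnfrsf11a, Tnfrsf14 and Tnfrsf18 were at 0 in every library. The decoy receptor gene Tnfrsf11b (osteoprotegerin) reached at most 0.477 FPKM, and Tnfrsf8 and Tnfrsf17 were above 0 in control library 2 alone. Values this low rest on few reads.

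Set out as 18 textbook pairs of ligand and receptor within the family, 1 pair had both transcripts past the minimum, Tnfsf12 with Tnfrsf12a. In 8 pairs the receptor alone passed it, as for Tnf with Tnfrsf1a and Tnfrsf1b, for Ltb and Tnfsf14 with Ltbr, and for Faslg with Fas. In 1 pair the ligand alone did, Tnfsf15 with Tnfrsf25, and in 8 pairs neither did. Tnfrsf1a, Tnfrsf1b and Ltbr each stand in more than 1 of the receptor-only pairs, so those pairs are not separate cases. In the Tnfsf12 and Tnfrsf12a pair the receptor fell while the ligand gave means of 23.7 ± 2.57 FPKM with IL-22 and 20.5 ± 0.468 FPKM in control (SD, n = 2 each).

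**Figure D3:**
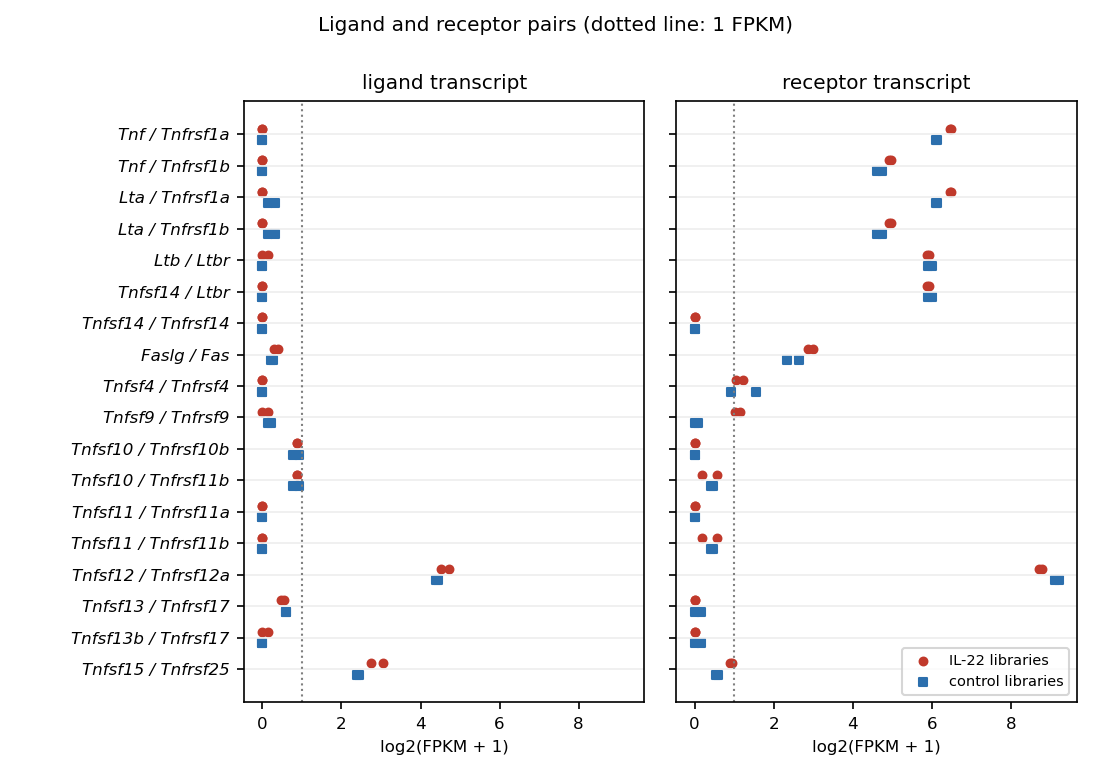
Level of ligand transcripts (left) and receptor transcripts (right) on the log2(FPKM + 1) scale for 18 ligand and receptor pairs, circles for the 2 IL-22 libraries and squares for the 2 control libraries. Most ligands lie left of the dotted line at 1 FPKM, and Tnfsf12 with Tnfrsf12a is the pair with both transcripts to its right.

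Of the 6 TRAF genes, all of which were tested, 2 rose and none fell, or 33.3% called, against 58.4% of all tested rows. Traf1, an adaptor that lacks the ubiquitin ligase RING domain of its relatives and is itself induced by NF-kappaB, measured 27.3 and 25.9 FPKM in the IL-22 libraries and 13.7 and 14.2 FPKM in the control libraries. This 1.91-fold rise was the largest among the TRAF genes (0.88 ± 0.08, limma adjusted p = 2.7e-05). Traf7, a RING-domain protein that binds the kinase encoded by Map3k3, measured 113 and 110.3 FPKM in the IL-22 libraries and 86.9 and 94.2 FPKM in the control libraries (0.30 ± 0.07, limma adjusted p = 0.00448). It was the most abundant TRAF transcript in both groups. Traf2, the adaptor of TNFR1 and TNFR2 complexes, averaged 34.3 ± 1.20 FPKM with IL-22 and 31.0 ± 1.26 FPKM in control and did not pass (0.14 ± 0.08, limma adjusted p = 0.133), except with quantile normalization (0.22, limma adjusted p = 0.0364). Traf3, which restrains the alternative pathway, gave -0.13, Traf4 -0.03, and Traf6, which also serves interleukin-1 and Toll-like receptors, 0.19, and none of these 3 passed.

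The genes named for binding TRAF3 went down or did not pass. Traf3ip1, which encodes a protein of ciliary transport, measured 5.94 and 6.04 FPKM in the IL-22 libraries and 9.98 and 9.94 FPKM in the control libraries. It was the largest fall among the tested members, to 0.602 of control (-0.65 ± 0.10, limma adjusted p = 0.000538). Traf3ip2, which encodes Act1, the adaptor of IL-17 receptors, measured 7.59 and 6.38 FPKM in the IL-22 libraries and 7.77 and 9.62 FPKM in the control libraries and did not pass (-0.28 ± 0.13, limma adjusted p = 0.0961). Traf3ip3 was at or under 0.203 FPKM in every library.

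The death-domain adaptors and their partners gave 1 rise and 2 falls of 7 tested, with a median difference of -0.17. That is 42.9% called, against 58.4% of all tested rows. Fadd, the adaptor that brings caspase-8 to death receptors, measured 14.6 and 14.8 FPKM in the IL-22 libraries and 23.2 and 22.3 FPKM in the control libraries. It fell to 0.644 of control, with replicates that differed by far less than the groups (-0.60 ± 0.08, limma adjusted p = 0.000248). Ripk3, the kinase of necroptosis, measured 64.8 and 63.7 FPKM in the IL-22 libraries and 76.5 and 72.5 FPKM in the control libraries (-0.21 ± 0.07, limma adjusted p = 0.0224). That call was lost with quantile normalization (limma adjusted p = 0.111), without the variance trend (0.0612), without control library 1 (0.0702), and without either IL-22 library, the first (0.0974) or the second (0.138). Ripk2, the kinase of the bacterial sensors NOD1 and NOD2, measured 15.1 and 14.7 FPKM in the IL-22 libraries and 9.13 and 9.73 FPKM in the control libraries, a 1.58-fold rise (0.61 ± 0.09, limma adjusted p = 0.000479).

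The remaining death-signalling members did not pass. Tradd, the first adaptor of TNFR1, averaged 18.5 ± 0.426 FPKM with IL-22 and 20.9 ± 0.580 FPKM in control (-0.17 ± 0.08, limma adjusted p = 0.105). Ripk1, the kinase at the branch between survival and death, averaged 14.1 ± 0.486 FPKM with IL-22 and 15.1 ± 0.811 FPKM in control (limma adjusted p = 0.415). Birc2, which encodes the ubiquitin ligase cIAP1, averaged 6.0 ± 0.416 FPKM with IL-22 and 7.39 ± 0.15 FPKM in control (-0.26 ± 0.11, limma adjusted p = 0.0627), and it passed with quantile normalization and without the variance trend. Cflar, which encodes c-FLIP, the inhibitor of caspase-8 at death receptors, measured 15.8 and 15.2 FPKM in the IL-22 libraries and 15.3 and 15.5 FPKM in the control libraries, with a difference of 0.01 ± 0.08. In the GRCr8 annotation Cflar overlaps Casp8, Ripk1 overlaps Serpinb6a, Ripk3 overlaps Nfatc4 and Tradd overlaps Phaf1. Since strand is not stated, reads from the shared stretch of such neighbours cannot be told apart. Whether their exons overlap was not checked.

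The TNFAIP and TNIP genes, named as TNF-induced or as binding partners of a TNF-induced protein, held the 2 largest rises among the tested members. Of 6 tested, 5 were higher and none lower, with a median difference of 0.55. That is 83.3% called in this small class, against 58.4% of all tested rows, of which 27.6% were higher. Tnfaip6 encodes TSG-6, a secreted hyaluronan-binding protein of inflamed tissue. It measured 9.56 and 11.4 FPKM in the IL-22 libraries and 2.36 and 3.59 FPKM in the control libraries, a 3.52-fold rise (1.54 ± 0.16, limma adjusted p = 5.59e-05). Tnfaip2, a TNF-induced gene whose product takes part in membrane nanotubes, measured 27.4 and 29.4 FPKM in the IL-22 libraries and 9.62 and 10.6 FPKM in the control libraries, a 2.81-fold rise (1.40 ± 0.09, limma adjusted p = 3.47e-06). In both genes the gap between the groups was wider than the gap between replicates.

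Tnip1 and Tnip2 encode ubiquitin-binding inhibitors of NF-kappaB signalling, also called ABIN1 and ABIN2. Tnip1 measured 85.3 and 92.2 FPKM in the IL-22 libraries and 55.7 and 56.7 FPKM in the control libraries, a 1.58-fold rise (0.65 ± 0.07, limma adjusted p = 6.01e-05). Tnip2 measured 9.72 and 10.5 FPKM in the IL-22 libraries and 7.23 and 7.02 FPKM in the control libraries, a 1.42-fold rise (0.45 ± 0.10, limma adjusted p = 0.00431). Neither gene's groups overlapped. Tnfaip1, which encodes a substrate adaptor of a cullin ubiquitin ligase, rose least, with 43.5 and 42.1 FPKM in the IL-22 libraries and 37.2 and 38.0 FPKM in the control libraries (0.18 ± 0.07, limma adjusted p = 0.0484). Its call was lost without the variance trend (limma adjusted p = 0.0858), without control library 1 (0.0997) or 2 (0.0694) and without IL-22 library 1 (0.252) or 2 (0.141). Tnfaip8, founder of a family of lipid-binding regulators of cell death, averaged 19.1 ± 0.655 FPKM with IL-22 and 16.4 ± 1.59 FPKM in control and did not pass (limma adjusted p = 0.0804), but passed with quantile normalization, with size factors and without control library 2. Its relative Tnfaip8l2 stayed at or under 0.507 FPKM.

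The promoters of the 4 family members that rose most among those with an entry in the RefSeq promoter table (Tnfaip6, Tnfaip2, Traf1 and Tnip1) are shown to set the letters beside the rises. Each runs 5′ to 3′ on the gene's strand, from 250 bases before to 50 bases after the annotated start, in the RefSeq table's build GRCr8. Capitals mark matches, on either strand, to the NF-kappaB consensus, to TTCNNNGAA (a STAT pattern) or to TGANTCA (an AP-1 pattern). These patterns were chosen with the values known.

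Tnfaip6 promoter, GRCr8 chr3:56911148-56911447, plus strand: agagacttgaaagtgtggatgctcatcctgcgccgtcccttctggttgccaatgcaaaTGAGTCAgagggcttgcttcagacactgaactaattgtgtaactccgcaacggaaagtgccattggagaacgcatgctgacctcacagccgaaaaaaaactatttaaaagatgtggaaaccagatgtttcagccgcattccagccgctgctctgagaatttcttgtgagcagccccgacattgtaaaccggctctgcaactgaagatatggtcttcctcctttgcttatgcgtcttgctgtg

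Tnfaip2 promoter, GRCr8 chr6:136297832-136298131, plus strand: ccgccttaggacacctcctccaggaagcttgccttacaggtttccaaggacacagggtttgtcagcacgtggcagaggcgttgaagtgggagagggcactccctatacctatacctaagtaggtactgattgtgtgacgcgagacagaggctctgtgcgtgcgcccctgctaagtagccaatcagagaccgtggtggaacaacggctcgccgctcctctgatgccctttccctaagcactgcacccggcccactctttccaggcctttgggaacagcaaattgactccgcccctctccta

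Traf1 promoter, GRCr8 chr3:38635721-38636020, minus strand: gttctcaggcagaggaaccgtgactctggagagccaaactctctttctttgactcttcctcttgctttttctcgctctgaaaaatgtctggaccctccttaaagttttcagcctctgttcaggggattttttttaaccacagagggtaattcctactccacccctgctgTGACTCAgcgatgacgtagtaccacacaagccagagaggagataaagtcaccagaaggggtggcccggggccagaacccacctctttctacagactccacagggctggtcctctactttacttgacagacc

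Tnip1 promoter, GRCr8 chr10:39584912-39585211, minus strand: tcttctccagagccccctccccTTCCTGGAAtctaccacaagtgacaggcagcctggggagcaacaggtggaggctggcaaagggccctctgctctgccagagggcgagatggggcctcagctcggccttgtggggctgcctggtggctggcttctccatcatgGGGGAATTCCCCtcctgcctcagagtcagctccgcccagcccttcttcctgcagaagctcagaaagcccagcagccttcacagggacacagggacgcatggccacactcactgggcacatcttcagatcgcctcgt

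Tnip1 held a STAT pattern and, further downstream, 3 overlapping matches to the NF-kappaB consensus, which run together in capitals. Tnfaip6 and Traf1 held an AP-1 pattern each, and Tnfaip2 held no match. Of 27457 rat promoters of the same length, 1 per symbol, 7.6% held the NF-kappaB consensus, 8.68% the STAT pattern and 7.33% the AP-1 pattern. In the family 43 of 55 genes had a promoter entry, of which 10 held the NF-kappaB consensus, 6 the STAT pattern and 8 the AP-1 pattern. The 10 included Fas, Tnip1 and Traf7, which rose, and Fadd, which fell. They also included Traf3 and Traf3ip2, which were not called, and Lta, Ltb, Tnfrsf8 and Tnfsf14, which were under the minimum. With another version of the NF-kappaB pattern the count was 3, namely Ltb, Tnfaip2 and Tnip1, against 3.96% of all promoters. Tnfrsf12a, which fell, also held a STAT pattern, and Ripk3, which fell, an AP-1 pattern. A match is a description of letters in this window, not a site.

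Other genes of the pathway were read from 4 lists. Core NF-kappaB signalling genes outside the family gave 12 higher and 8 lower of 33 tested, or 60.6% in either direction against 58.4% of all tested rows, with a median difference of 0.01. The 4 largest rises were those of Bcl3, Nfkbiz, Nfkbia and Optn. Bcl3, a nuclear IkappaB protein, averaged 52.1 ± 1.21 FPKM with IL-22 and 6.68 ± 0.949 FPKM in control (2.79 ± 0.10, limma adjusted p = 1.47e-07). Nfkbiz, another nuclear IkappaB protein, gave 2.55, Nfkbia, the inhibitor that holds NF-kappaB in the cytoplasm, 1.70, and the ubiquitin receptor gene Optn 1.36. Nfkbiz averaged 9.97 FPKM with IL-22 and 0.877 FPKM in control, so it passed the minimum through the IL-22 group alone. Its difference ran from 1.35 to 3.36 over the 12 alternatives. Among those that fell were Map3k14, which encodes NIK, the kinase of the alternative pathway (-0.63 ± 0.10, limma adjusted p = 0.000553), Tbk1 (-0.53), the deubiquitinase gene Usp21 (-0.50) and Sharpin, a subunit of the linear ubiquitin ligase (-0.48).

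Death-receptor genes outside the family gave 4 higher and 4 lower of 17 tested, or 47.1% in either direction against the same 58.4%, with a median of -0.01. Birc3, which encodes cIAP2, the close relative of cIAP1, averaged 8.41 ± 0.889 FPKM with IL-22 and 1.57 ± 0.120 FPKM in control, a 5.35-fold rise (1.87 ± 0.13, limma adjusted p = 5.46e-06). Bid, which links death receptors to mitochondria, rose (0.47). Casp8, the initiator caspase, gave 0.25 ± 0.08 (limma adjusted p = 0.0243), a call lost without control library 1 (limma adjusted p = 0.071), control library 2 (0.0929) or IL-22 library 1 (0.202), and Dedd gave 0.26, a call lost without the filter (limma adjusted p = 0.0612), without the variance trend (0.053), and when control library 2 (0.119) or IL-22 library 1 (0.159) was left out. Among the lower genes were Casp8ap2 (-0.59) and Daxx (-0.48), and Pidd1 (-0.41) was called but for the fit without control library 2 (0.0514).

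**Figure D4:**
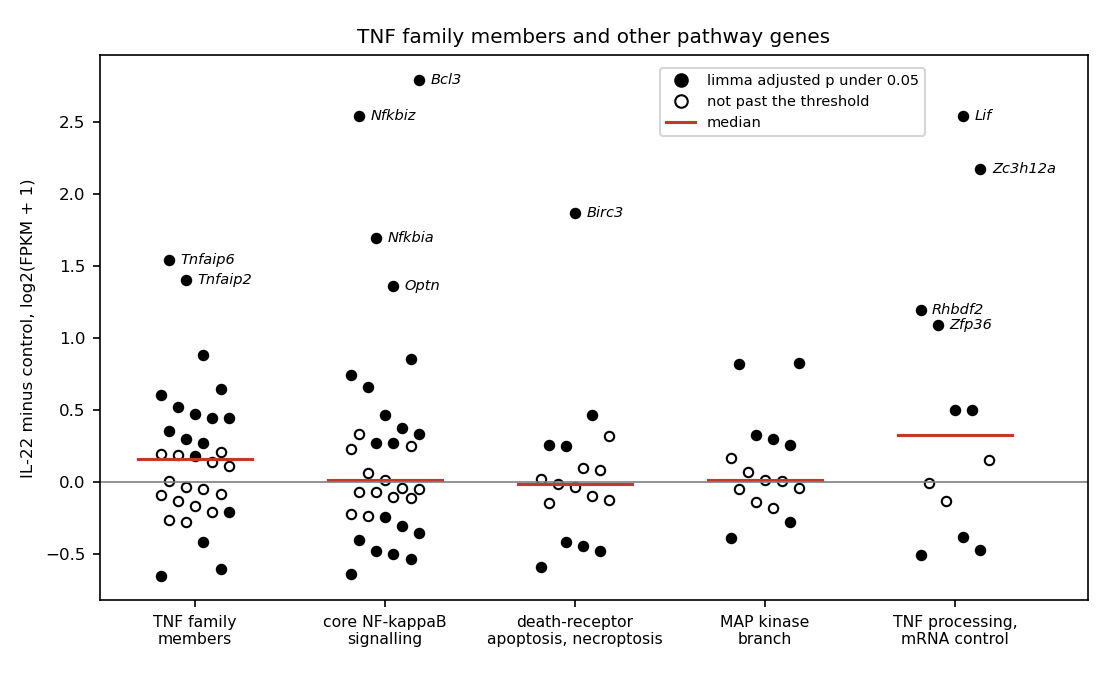
Log2(FPKM + 1) difference, IL-22 minus control, for the 32 tested family members and for the tested genes of 4 other pathway lists, filled where the limma threshold was passed, with the median of each list as a line. Genes higher by at least 1 log2 are named, and they lie in the family, the NF-kappaB list, the death-receptor list (Birc3) and the TNF processing list.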

How the data were processed

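Poly(A) RNA of 4 libraries was sequenced on an Illumina HiSeq, per the labels. The authors deposited FPKM per gene with 1 column per library. The submitters' processing notes name TopHat2, Cuffdiff and the build rn5. Annotation, filters, strand and scaling: not given in the sources used here. Since FPKM are no counts, rows averaging 1 FPKM or more (9485 of 17778) were tested as log2(FPKM + 1) with limma 3.58.1 (R 4.3.3, eBayes with trend, two-sided, no covariates), Benjamini-Hochberg adjusted over all 9485 rows, threshold 0.05. This scale understates changes of low genes. Folds divide mean FPKM. An exact permutation test of 2 against 2 libraries cannot go below 0.333. The fit was also run on simulated data in which few genes changed. That setting differs from the large share of rows called here, so nothing on these calls is drawn from it. Relative depth is the commonest ratio of rows under 0.15 FPKM, and without absolute depth no counting intervals are given. Members, lists and tests were chosen with earlier results of these data known. Every library's value is given for members past the threshold by at least 0.5 log2, for the classical TNF ligands and receptors, and for further members added after their values were seen. Of other lists up to 4 genes per direction are named. All 55 symbols matched RefSeq (GRCr8), where 18 overlap another gene by whole span, introns included. The lncRNA table was not used. Alternatives were pseudocounts 0.1 and 5, no filter, quantile normalization, size factors, no trend, robust eBayes, a block for the replicate number, and leaving out each library, its partner then being assumed to vary like the other group. Figures used Python 3.11.15 and matplotlib 3.10.9.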

Additional observations from a re-analysis of the deposited data

How the results depend on the processing

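Over 12 alternatives, 12 of the 17 called family members kept their call and direction in every one, and the other 5 (Tnfsf15, Tnfrsf1b, Fas, Ripk3 and Tnfaip1) lost it in at least 1. Of the 15 tested members not called, 10 were called in no alternative. Leaving out 1 library gave from 10 to 11 family members higher and from 3 to 4 lower, and among the death-receptor genes outside the family from 2 to 4 higher. The lowest of these, 2, came without IL-22 library 1. In the MAP kinase list, examined after its values were seen, leaving out 1 library gave from 2 to 4 higher and from 1 to 3 lower, with 3 higher without control library 1, 2 higher without IL-22 library 2 and 1 lower without IL-22 library 1, and dropping the filter left 3 higher. Taking Lif out of the TNF processing list, also chosen after seeing the data, moved its median to 0.15 by having 1 gene fewer. The cause of the other shifts was not tested. With the replicate number as a block, 12 family members were higher and 4 lower, Tnfaip1 being the call lost (limma adjusted p = 0.0508). The correlation of same-numbered libraries' deviations between the groups was -0.002 over 9485 rows. This single value cannot show whether same-numbered libraries shared a culture or preparation, which is not stated. No called family member changed direction in any of the 12. Median-of-ratios size factors moved the median of all tested rows to 0.01, with 14 family members higher and 4 lower. Over all 9485 rows 2858 were then higher and 2707 lower, against 2619 and 2918 in the main fit. With quantile normalization the family's counts were 16 and 4, and those of all rows 2592 higher and 2839 lower. Leaving out a library also gave fewer calls in both directions over all tested rows. Genes under 1 FPKM rest on few reads, which limits Tnfrsf9, Tnfrsf25 and the untested ligands.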

Other observations

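Genes of TNF processing and of mRNA control gave 6 higher and 3 lower of 12 tested (75% in either direction, against 58.4% of all tested rows), with a median difference of 0.33. The list holds the cytokine gene Lif by mistake, and without it the counts were 5 higher and 3 lower of 11 and the median 0.15. Zc3h12a, which encodes Regnase-1, an RNase that degrades inflammatory mRNAs, averaged 29.8 ± 0.186 FPKM with IL-22 and 5.83 ± 0.261 FPKM in control (SD, n = 2 each), a 5.11-fold rise (2.17 ± 0.09, limma adjusted p = 2.71e-07). Zfp36, which encodes tristetraprolin, a protein that destabilises Tnf mRNA, averaged 27.7 ± 1.60 FPKM with IL-22 and 12.5 ± 1.66 FPKM in control (1.09 ± 0.10, limma adjusted p = 3.02e-05). The rhomboid-like genes, whose products carry the TNF-shedding protease to the cell surface, went opposite ways, with Rhbdf2 at 1.20 ± 0.10 (limma adjusted p = 1.83e-05) and Rhbdf1 at -0.47 ± 0.09 (limma adjusted p = 0.00182). Lif gave 2.54, and Elavl1 (-0.38) fell. Tia1 (-0.51 ± 0.15, limma adjusted p = 0.0159) lost its call without the filter and without the second library of either group, with limma adjusted p between 0.00049 and 0.169 over 12 alternatives. Adam17, the protease itself, gave -0.13 ± 0.09 and missed the threshold (limma adjusted p = 0.232).

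Genes of the MAP kinase branch gave 5 higher and 2 lower of 15 tested (46.7% in either direction, against 58.4% of all tested rows), with a median of 0.02. Of the 5 higher genes Map3k1, Mapk11 and Atf2 lost their call without IL-22 library 2, which left 2, Mapk9 and Dusp1. Mapk11 lost it in 8 of the 12 alternatives. The kinase gene Mapk9, which encodes JNK2, averaged 32.9 ± 0.730 FPKM with IL-22 and 18.2 ± 0.393 FPKM in control (0.82 ± 0.08, limma adjusted p = 2.83e-05), while Mapk8, which encodes JNK1, gave -0.04 and did not pass (limma adjusted p = 0.779). Whether the 2 genes differ from each other was not tested. The phosphatase gene Dusp1 rose by 0.82, and Map2k3 (-0.39) fell.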
